A study of Rattus norvegicus with 19 samples.

Results

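The genes of the hepatic urea cycle were followed in the livers of rats on a high protein, a high fat or a control diet. The set holds the enzymes of the cycle (Cps1, Otc, Ass1, Asl and Arg1), the enzyme that makes its activator (Nags) and 2 mitochondrial carriers (Slc25a15 and Slc25a13). A gene entered by its name on the array, or by the current symbol reached through its accession or a synonym, whatever its expression. All 8 genes were found, with 1 probe each, among 41012 non-control probes for 15223 named genes. In the high protein livers Asl and Cps1 were higher than in control livers, and Asl, Ass1 and Cps1 were higher than in high fat livers. Only the calls of Asl stayed once the array slide was entered in the model. The call of Cps1 against control livers was also lost in 10 of the 19 fits that left out 1 rat. No gene of the set was called different between high fat and control livers.

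The urea cycle converts ammonia and the nitrogen of aspartate into urea, the form in which mammals excrete the nitrogen of amino acids that are broken down. Its first steps run in the mitochondria of hepatocytes and its later steps in the cytosol, so that ornithine, citrulline and aspartate have to cross the inner mitochondrial membrane. In the liver lobule the cycle is strongest in periportal hepatocytes, while the last hepatocytes before the central vein capture remaining ammonia as glutamine. Rats that eat more protein are known to raise the activities of these enzymes.

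The diets were compared in single-housed adult male Wistar rats, which started the diet at 8 weeks of age and stayed on it for 4 months. The HP diet (6 rats) supplied protein, mainly casein, for 45% of its energy, carbohydrate for 45% and fat for 10%. The HF diet (6 rats) supplied fat for 60% of its energy, carbohydrate for 20% and protein for 20%. The Control diet (7 rats), named low fat in the labels, supplied carbohydrate for 70% of its energy, protein for 20% and fat for 10%. HP therefore differed from Control by protein in place of carbohydrate, HF differed from Control by fat in place of carbohydrate, and HP and HF differed in all 3 nutrients. All rats were killed fed, early in the morning, and the labels give each array as the liver of a separate rat. No gene was altered and no drug was given in any group.

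Each value below is a log2 ratio of a rat's liver RNA (Cy5 dye) to a common pool of liver RNA (Cy3 dye) on the same array, so 0 stands for the level of the pool and 1 unit is a doubling. There were no dye swaps, and a dye effect shared by all arrays cancels in differences between diets but not in the ratios themselves. The ratio of one probe says nothing about its level against another probe. The signal stood well above background on 54.2% to 67.5% of the non-control spots of an array. All 10 listed hepatocyte markers were measured above background, with rat medians of 0.26 to 0.47 in HP, 0.14 to 0.28 in HF and 0.11 to 0.35 in Control, and 0 of the 10 were called in HP against Control (2 at an unadjusted p under 0.05 in limma). The liver of Control 6 stood apart. Its log ratios had an SD of 0.44, against 0.20 to 0.29 on the other 18 arrays, and the median of 5 measured lymphocyte markers (of 12 on the array) was 2.26, against -0.92 to -0.59 in the other 18 livers. Values without Control 6 are therefore also given for Cps1, Asl, Slc25a15, the pairs of members and the correlations of the genes most like the members. Differences of the genes in other lists are given with it only. The part of lymphocytes in the results was not tested. In bulk liver RNA, fewer cells of a type and less RNA per cell cannot be told apart.

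All 8 probes were well above background in both dyes on 19 of 19 arrays. No spot of theirs was saturated or marked as an outlier, and the lowest ratio of signal to local background was 69 (Cps1). In the rn4 build that the scanner files use, 5 of the 8 probes span more than 60 bases of genome. The probe of Slc25a13 carries an older locus name and a description as a gene like citrin. Its synonym is shared with Chmp4b and was settled by its chromosome. A second probe described as an ornithine transcarbamylase peptide, without a gene name, was well above background on 0 arrays and is no member.

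The 3 genes with a called difference are shown with the stretch just before their transcript start, since they are the members that moved with the diet. RefSeq sequences of the GRCr8 build were matched for 7 of the 8 genes, all but Arg1, and up to 250 bases before the start were searched on both strands. The strand is + for all 3: Cps1 lies at chr9:76063613-76063862, Ass1 at chr3:35149480-35149729 and Asl at chr12:32295658-32295778. The Ass1 stretch lies inside the annotated gene, which has an earlier start, and for Asl 129 bases inside the annotated gene were searched but are not printed. Capitals mark matches to any motif searched.
Cps1: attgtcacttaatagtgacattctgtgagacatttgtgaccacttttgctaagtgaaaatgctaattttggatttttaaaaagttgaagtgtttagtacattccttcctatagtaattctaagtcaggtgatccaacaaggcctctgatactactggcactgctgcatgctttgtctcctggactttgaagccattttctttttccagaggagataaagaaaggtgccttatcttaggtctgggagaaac
Ass1: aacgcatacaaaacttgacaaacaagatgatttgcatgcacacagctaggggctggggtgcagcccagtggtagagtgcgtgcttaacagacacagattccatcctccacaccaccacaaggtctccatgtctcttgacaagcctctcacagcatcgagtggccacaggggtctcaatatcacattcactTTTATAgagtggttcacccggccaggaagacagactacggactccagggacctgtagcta
Asl: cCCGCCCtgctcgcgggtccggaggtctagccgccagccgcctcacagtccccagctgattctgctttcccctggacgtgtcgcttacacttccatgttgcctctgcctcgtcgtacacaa

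The motifs were chosen for factors that act on metabolic genes or on promoters in general. Among general motifs were CCAAT, the motif TATAAA and, as the site of Sp1, GGGCGG. The cAMP response element was searched as TGACGTCA and in its shorter form TGACG, which lies within it. The amino acid response element bound by CEBP and ATF4 was searched as TGATGNAA, the CEBP motif as TTNNGCAA and one arm of the glucocorticoid receptor's site as TGTTCT, where N is any base. The Cps1 stretch, with 38.0% G and C, held no match. The Ass1 stretch held TATAAA on the other strand, at -60 to -55 from the transcript start, and 12.9% of 33469 rat promoters hold this motif in the same window. The Asl stretch held GGGCGG on the other strand at -249 to -244, as 30.5% of promoters do. Of the members without a called difference, Nags held GGGCGG on the other strand from -46 and from -41, Slc25a15 held CCAAT (34.0% of promoters) and Slc25a13 held CCAAT and TGACG (18.2% of promoters). The Slc25a15 stretch lies inside the annotated gene, as do 43 of the bases searched for Slc25a13. Of the motifs found in none of the 7 windows, TGACGTCA is in 1.59% of promoters, TGATGNAA in 3.4%, TTNNGCAA in 9.22% and TGTTCT in 17.5%. Cps1, Ass1 and Asl shared no match in these windows.

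Protein in place of carbohydrate went with higher expression of the first mitochondrial enzyme and of a late cytosolic one. Of the 8 members, 2 were called higher in HP than in Control and 0 lower, by limma at an adjusted p under 0.05. Of all 25292 probes tested, 0.447% were called, 0.308% higher and 0.138% lower. At an unadjusted p under 0.05 there were 5 of the 8 members and 14.4% of all probes. All 8 members had a difference above 0, with a median of 0.32, while the median of all probes was -0.01. For 3 members, Cps1, Ass1 and Asl, every HP liver lay above every Control liver, which held for 0.506% of all probes, with 0.277% wholly lower.

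**Figure D1:**
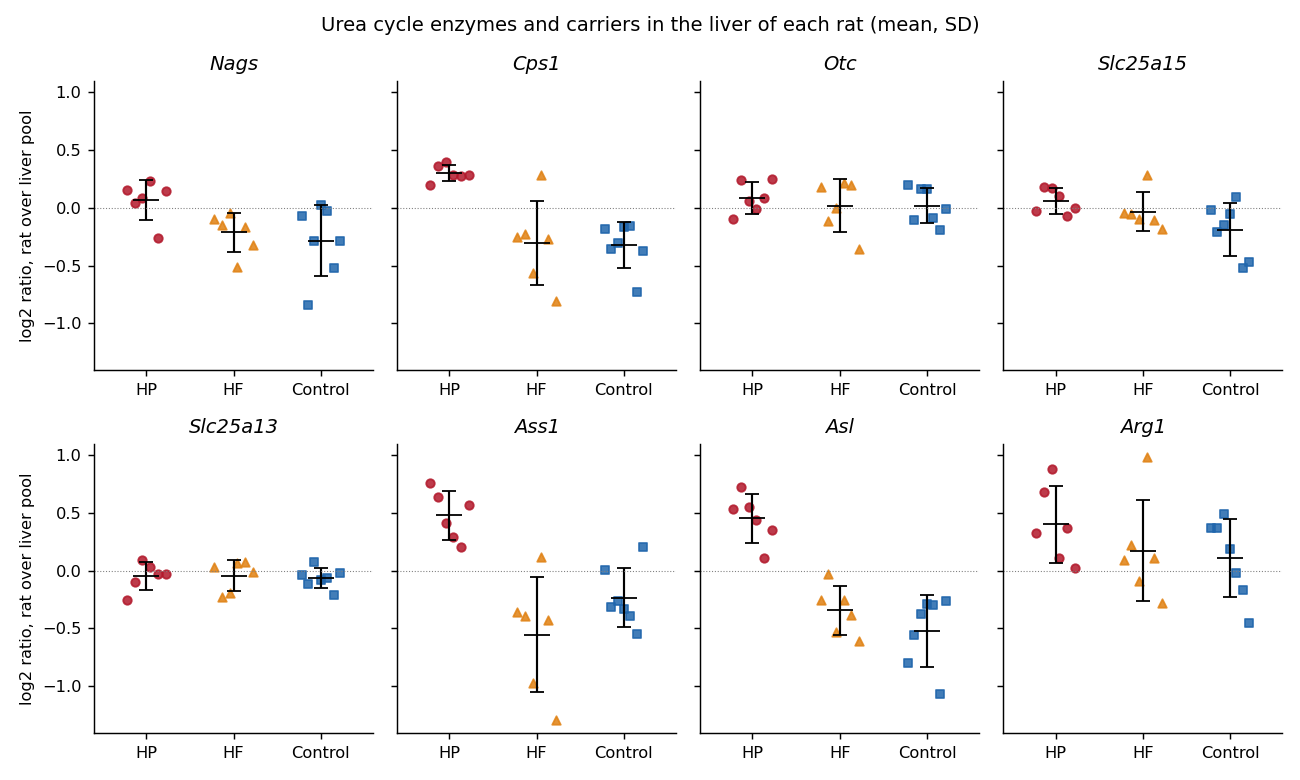
Log2 ratio of each rat's liver to the liver pool (vertical axis) for the 8 members. Each point is 1 rat on the HP, HF or Control diet, and bars give the mean and SD of 6, 6 and 7 rats. All HP livers lie above all Control livers for Cps1, Ass1 and Asl, and HF 4 is the highest HF liver for Cps1, Ass1, Arg1, Otc and Slc25a15.

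Of the mitochondrial enzymes, Nags makes N-acetylglutamate, the activator that carbamoyl phosphate synthetase needs. On rn4 the probe spans chr10:91213944-91214110 on the + strand. In the HP livers it ranged between -0.26 and 0.23 with a median of 0.12, in HF between -0.51 and -0.04 with a median of -0.16, and in Control between -0.84 and 0.03 with a median of -0.28. Of the 6 HP livers 5 lay above the highest liver of either other diet, and HP 5, the lowest, lay among them. The difference of HP from Control was 0.35 ± 0.12 (SE, adjusted p = 0.188) and that of HP from HF 0.28 ± 0.13 (adjusted p = 0.213). Neither passed.

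Cps1 encodes carbamoyl phosphate synthetase 1, which joins ammonia and bicarbonate and sets the pace of the cycle. Its probe lies at chr9:66002449-66003777 on the + strand (rn4). Its log2 ratio ranged between 0.20 and 0.39 in HP (median 0.28), between -0.80 and 0.28 in HF (median -0.26) and between -0.73 and -0.16 in Control (median -0.30). The HP livers lay close together, with an SD of 0.07, against 0.37 in HF and 0.20 in Control (0.10 without Control 6). The HP and Control livers did not overlap, and the lowest Control liver was Control 6. Among HF livers only HF 4 reached the HP range, with the next at -0.23.

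Cps1 was higher in HP than in Control by 0.62 ± 0.13 (log2, SE, n = 6 and 7, adjusted p = 0.0325), or 1.54-fold. It was higher in HP than in HF by 0.60 ± 0.13 (adjusted p = 0.00761), a call that slide as a fixed block ended. HF and Control differed by 0.02, with a 95% interval of -0.25 to 0.28 (adjusted p = 0.965). The call against Control was near the threshold. Without Control 6 the difference was 0.55 (adjusted p = 0.0524), and with slide as a block it was 0.65 (adjusted p = 0.0929). Leaving out any HP rat, or Control 1, 2 or 3, also ended it, with values of 0.55 to 0.65 and adjusted p of 0.0104 to 0.0892 over the 19 omissions.

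Otc, ornithine transcarbamylase, makes citrulline from ornithine and carbamoyl phosphate. The Otc probe spans chrX:24619355-24624560 on the - strand (rn4). The livers lay between -0.10 and 0.25 in HP (median 0.07), between -0.36 and 0.21 in HF (median 0.09) and between -0.19 and 0.20 in Control (median -0.01). The 3 groups overlapped widely, with HF 6 lowest of all. The difference of HP from Control was 0.07, with a 95% interval of -0.13 to 0.26 (adjusted p = 0.77), and that of HP from HF was 0.07, with an interval of -0.14 to 0.27 (adjusted p = 0.79). The upper bounds lie below the estimates for Cps1, but the difference between the genes was not tested.

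The carriers move the intermediates across the inner mitochondrial membrane. Slc25a15 exchanges ornithine for citrulline. Its probe lies at chr16:74299612-74299671 on the + strand (rn4), and its livers lay between -0.07 and 0.18 in HP (median 0.05), between -0.19 and 0.29 in HF (median -0.07) and between -0.52 and 0.09 in Control (median -0.15). The groups overlapped, and 3 of 6 HP livers lay above the highest Control liver. The difference of HP from Control was 0.25 ± 0.10 (SE, adjusted p = 0.234), and 0.19 without Control 6. Slc25a13, the aspartate and glutamate carrier citrin, supplies the cytosol with the aspartate that enters the cycle. Its probe lies at chr4:30823470-30823529 on the - strand (rn4), and its livers lay between -0.26 and 0.09 in HP (median -0.03), between -0.23 and 0.08 in HF (median 0.01) and between -0.21 and 0.08 in Control (median -0.06). Over the 19 livers it had the narrowest range of the members, and its 3 differences lay within 0.02 of 0. The 95% interval of the difference of HP from Control was -0.12 to 0.15 (adjusted p = 0.925).

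Of the cytosolic enzymes, Ass1 joins citrulline and aspartate to argininosuccinate. Its probe, under the older name Ass, lies at chr3:10620727-10622079 on the + strand (rn4). The log2 ratio ranged between 0.21 and 0.76 in HP (median 0.49), between -1.29 and 0.12 in HF (median -0.41) and between -0.55 and 0.20 in Control (median -0.31). All HP livers lay above all livers of the other diets, although Control 7, at 0.20, came within 0.01 of the lowest HP liver. HF 6 and HF 3, at -1.29 and -0.98, lay below every Control liver.

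The HP livers exceeded the HF livers in Ass1 by 1.03 ± 0.18 (log2, SE, n = 6 each, adjusted p = 0.00152), or 2.05-fold. With slide as a fixed block this call was lost (0.97, adjusted p = 0.109). The difference of HP from Control was 0.71 ± 0.18 and did not pass (adjusted p = 0.0778), although the livers did not overlap. It passed without Control 7 (0.79, adjusted p = 0.0304), without HF 4 (adjusted p = 0.0453) and without HF 6 (adjusted p = 0.0363). The HF livers enter this test only through the shared estimate of the spread and the adjustment. With the replicate number as a block, which takes out Control 7 as the only rat of that number, the difference was also 0.79 (adjusted p = 0.0458). It did not pass in the other 16 omissions (adjusted p up to 0.169) or in any other alternative. With slide as a fixed block it was 0.66 (adjusted p = 0.149), and with Cy5 alone 0.61 (adjusted p = 0.159). HF differed from Control by -0.32 ± 0.18, with a 95% interval of -0.69 to 0.05 (adjusted p = 0.401). It was the lowest of the members' differences in that comparison.

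Asl splits argininosuccinate into arginine and fumarate. The Asl probe spans chr12:27712767-27713038 on the + strand (rn4). The log2 ratio ranged between 0.11 and 0.73 in HP (median 0.49), between -0.61 and -0.03 in HF (median -0.32) and between -1.07 and -0.27 in Control (median -0.37). Every HP liver was above 0 and every HF and Control liver below it. HP 5 was the lowest of the HP livers and Control 6 the lowest of all 19. The means were 0.45 ± 0.21 in HP, -0.34 ± 0.21 in HF and -0.52 ± 0.31 in Control (SD, n = 6, 6 and 7).

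By p value Asl ranked 2 among the 25292 probes for HP against Control, with a difference of 0.97 ± 0.13 (SE, adjusted p = 0.00392), or 1.96-fold. Without Control 6 the difference was 0.88 (adjusted p = 0.00287). Against HF it was 0.80 ± 0.14 (adjusted p = 0.00115), or 1.74-fold. HF and Control livers overlapped, with a difference of 0.18 and a 95% interval of -0.10 to 0.45 (adjusted p = 0.564).

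Arg1, arginase, releases urea and returns ornithine. The Arg1 probe lies at chr1:21011150-21011209 on the + strand (rn4). The log2 ratio ranged between 0.02 and 0.88 in HP (median 0.35), between -0.28 and 0.98 in HF (median 0.10) and between -0.46 and 0.49 in Control (median 0.19). The spread within each diet was wide, with SDs of 0.33, 0.44 and 0.34, and the highest liver of all was HF 4. HP differed from Control by 0.29, with a 95% interval of -0.11 to 0.69 (adjusted p = 0.505), and from HF by 0.23, with an interval of -0.18 to 0.64 (adjusted p = 0.595). A rise of the size seen for Cps1 therefore lies inside the interval of Arg1 for both comparisons.

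**Figure D2:**
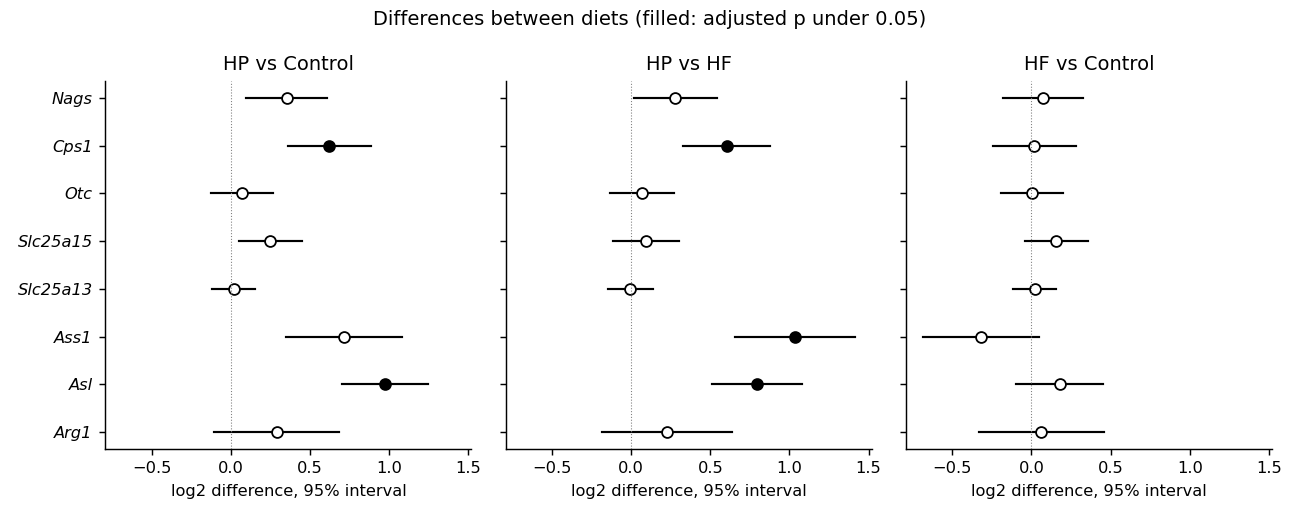
Log2 differences between diets with 95% intervals (horizontal axis) for the 8 members, first diet minus second. Filled points have an adjusted p under 0.05: Asl and Cps1 for HP vs Control and Asl, Ass1 and Cps1 for HP vs HF, with no filled point for HF vs Control.

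HP and HF differ in protein, fat and carbohydrate at once. Of the 8 members, 3 were called higher in HP than in HF and 0 lower, against 3.81% and 3.27% of all probes (7.08% in all). At an unadjusted p under 0.05 there were 4 members and 20.2% of all probes. HP and HF share only slide 1, and with slide as a fixed block 1 of the 3 calls stayed, that of Asl. Of the 10 hepatocyte markers 3 were also higher in HP than in HF, with 6 at an unadjusted p under 0.05, and 1 was lower in HF than in Control. These were Ttr (0.33), Serpina1 (0.41) and Ambp (0.30) for HP against HF, and Ambp (-0.37) for HF against Control, named after their values were seen. Their part in the members' values was not tested. The members' median difference was 0.25, beside -0.00 for all probes. For Ass1 and Asl the HP and HF livers did not overlap, with all HP livers higher, as for 2.83% of all probes, while 2.15% were wholly lower. Over the 3 diets together, the F test of the same model passed for Asl (adjusted p = 0.000259), Ass1 (adjusted p = 0.00362) and Cps1 (adjusted p = 0.00592), as for 6.57% of all probes, and the next member was Nags (adjusted p = 0.156).

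Fat in place of carbohydrate left every member's difference within 0.32 of 0. Of the 8 members 0 were called in limma, against 3.46% of all probes (1.72% higher and 1.73% lower), and 0 had an unadjusted p under 0.05, against 15.7% of all probes. No member's HF and Control livers were fully separated, while 0.767% of probes lay wholly higher and 1.13% wholly lower. The members' median difference was 0.04. The 95% intervals leave room for differences of up to 0.69 in size for Ass1 and 0.46 for Arg1, but of at most 0.16 for Slc25a13 and 0.20 for Otc. HP vs Control and HF vs Control use the same 7 Control livers.

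The arrays lay on 5 slides, each scanned in 1 session, and diet and slide were only partly mixed. HP and Control shared slides 1, 4 and 5 (6 HP and 4 Control arrays), HF and Control shared slides 1, 2 and 3 (6 HF and 4 Control arrays), and HP and HF shared slide 1 (2 HP arrays and 1 HF array). Within slides 1, 4 and 5, HP exceeded Control in Asl by 1.29, 0.70 and 1.52, in Cps1 by 0.43, 0.58 and 1.06, and in Ass1 by 0.52, 0.52 and 1.03. The only Control array on slide 5 is that of Control 6. Nags (0.26, 0.05 and 0.63) and Slc25a15 (0.06, 0.24 and 0.61) were also above 0 on all 3 slides, whereas Otc, Arg1 and Slc25a13 had both signs.

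Within slide 1, HP exceeded HF by 0.88 in Ass1, 0.74 in Asl and 0.49 in Cps1. With slide as a fixed block, Asl kept its call against Control (1.05, adjusted p = 0.021) and against HF (0.89, adjusted p = 0.0306). The call of Cps1 against HF was lost like that of Ass1 (Cps1 0.67, adjusted p = 0.132). For HF against Control, Arg1 was lower on slides 1, 2 and 3, by -0.27, -0.21 and -0.22, although the difference over all arrays was 0.06. Ass1 was lower on the same slides as well, by -0.36, -0.36 and -0.27.

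**Figure D3:**
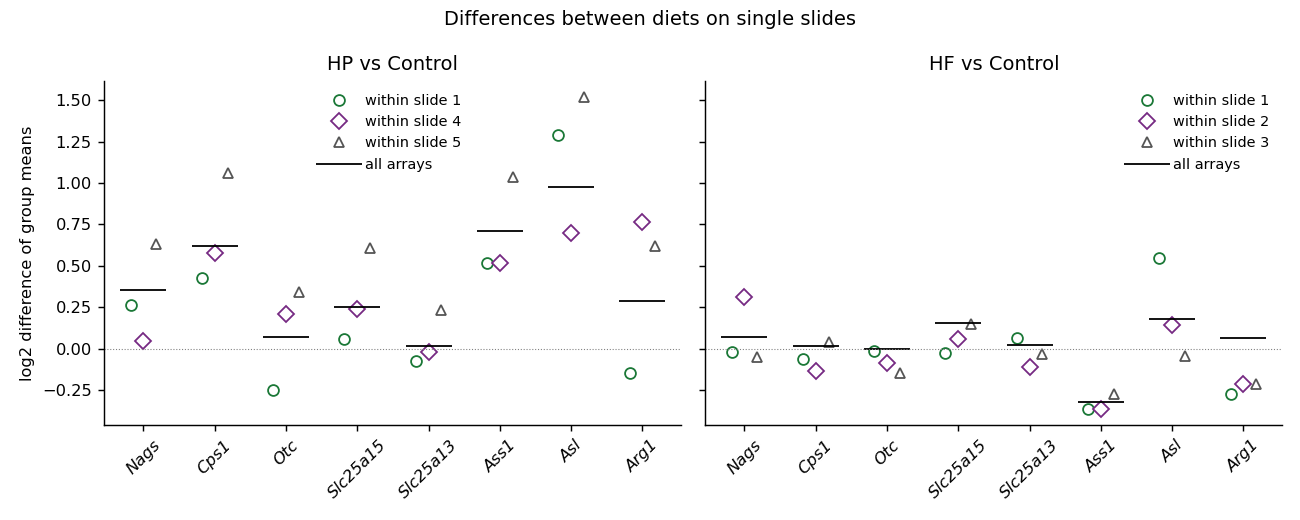
Log2 differences of group means (vertical axis) for the 8 members over all arrays (bars) and within each slide that holds both diets (open symbols), for HP vs Control on the left and HF vs Control on the right. Asl, Cps1 and Ass1 are above 0 on all 3 slides for HP vs Control, and Arg1 and Ass1 are below 0 on all 3 slides for HF vs Control.

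The livers also differed within a diet across the members. The median of the 8 log2 ratios in a liver was 0.09 to 0.30 in HP, -0.34 to 0.16 in HF and -0.52 to -0.03 in Control. All HP medians were above 0 and all Control medians below it, and HF 4 was the only HF liver above 0. HF 6 was below 0 for 8 of the 8 members and the lowest of the 19 livers for 3 of them. Control 6 was below 0 for 8 and lowest for 2, and HF 3 was below 0 for 8 and lowest for 0. HF 4 was the highest of the 19 for 2 members, Arg1 and Slc25a15. HF 4 and HF 6 lay on the same slide.

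After each diet's mean was removed, 27 of the 28 pairs of members had a correlation above 0 over the 19 livers, with a median r of 0.36 and a range of -0.25 to 0.79. The arrays share a common pool and, in part, slides, and Control 6 is below 0 for every member. Pairs of other genes were not correlated, so this count has no background beside it. Without Control 6, 23 of 28 pairs were above 0, with a median of 0.24. The closest pair was Cps1 and Slc25a15 (r = 0.79, and 0.74 without Control 6). Cps1 also went with Ass1 (r = 0.74) and Arg1 (r = 0.71), whereas the highest r of Nags was 0.34, with Asl. By rank the contrast was smaller. Spearman's rho was 0.90 for Cps1 and Slc25a15, 0.62 for Cps1 and Arg1 and 0.41 for Cps1 and Ass1. The highest rho of Nags was 0.40, with Slc25a15. Without Control 6 the rho of Cps1 and Ass1 was 0.29.

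Of 10696 other named genes, those that followed the members' median most closely over the 19 livers were Gls2 (Spearman's rho 0.88), Uox (0.87), Stat2 (0.86), Nnmt (0.85) and Got1 (0.85). Without Control 6 their rho was 0.83 to 0.85. Gls2 encodes the liver type of glutaminase, which releases ammonia from glutamine, and Got1 the cytosolic aspartate aminotransferase. Uox, urate oxidase, degrades uric acid, Nnmt methylates nicotinamide and Stat2 carries interferon signals. The members' median was above 0 in every HP liver and below 0 in every Control liver, so a difference between these diets is part of how the genes were picked. As a description, HP minus Control was 0.70 for Gls2, 0.60 for Uox, 0.28 for Stat2, 0.73 for Nnmt and 0.93 for Got1.

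Genes that feed nitrogen into the cycle were measured alongside. Of 14 measured genes of glutamate and ammonia supply, 5 rose in HP against Control and 0 fell, with a median difference of 0.34. Among all probes 0.308% were called higher and 0.138% lower. Besides Gls2 (adjusted p = 0.0325) and Got1 (adjusted p = 0.0214) these were Gpt, alanine aminotransferase (0.71 ± 0.14, SE, adjusted p = 0.0296), Hal, which starts histidine breakdown (0.57 ± 0.11, adjusted p = 0.0222), and Sds, which deaminates serine (1.41 ± 0.30, adjusted p = 0.0439). HP and Control livers did not overlap for Got1, at 0.40 to 1.02 in HP and -0.65 to 0.10 in Control. For Gpt they lay at 0.10 to 0.40 in HP and -0.74 to -0.11 in Control. Sds overlapped, at -0.47 to 1.01 in HP and -1.62 to -0.15 in Control.

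In HP against HF, 7 of these 14 genes were higher and 0 lower, against 3.81% and 3.27% of all probes. Gldc of the glycine cleavage system (1.00 ± 0.12, SE, adjusted p = 7.03e-05), Hal (0.86, adjusted p = 8.92e-05) and Got1 (1.19, adjusted p = 0.000284) had the smallest p values, followed by Gls2 (0.65), Sds (1.28) and Gpt (0.59). In HF against Control 1 gene of the 14 was called, beside 3.46% of all probes, and it was lower: Gldc, by -0.60 ± 0.11 (SE, adjusted p = 0.00427). The 3 genes by which perivenous hepatocytes take up ammonia and make glutamine were all called higher in HF than in Control, as were 1.72% of all probes. Glul, glutamine synthetase, was higher in HF than in Control by 0.70 ± 0.15 (adjusted p = 0.0136), Rhbg, an ammonia channel, by 1.04 ± 0.22 (adjusted p = 0.0104) and Slc1a2, a glutamate transporter, by 1.41 ± 0.24 (adjusted p = 0.002).

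The same 3 genes were lower in HP than in HF, by -0.82 for Glul (adjusted p = 0.00366), -0.97 for Rhbg (adjusted p = 0.014) and -1.02 for Slc1a2 (adjusted p = 0.0176), and HP and HF livers did not overlap for any of them. Among all probes 3.27% were called lower in HP than in HF, and 2.15% lay wholly lower. In HP against Control 0 of the 3 were called and 0 had an unadjusted p under 0.05 in limma. Glul lay between -0.90 and -0.09 in HP livers, between 0.08 and 0.53 in HF livers and between -0.89 and 0.11 in Control livers.

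**Figure D4:**
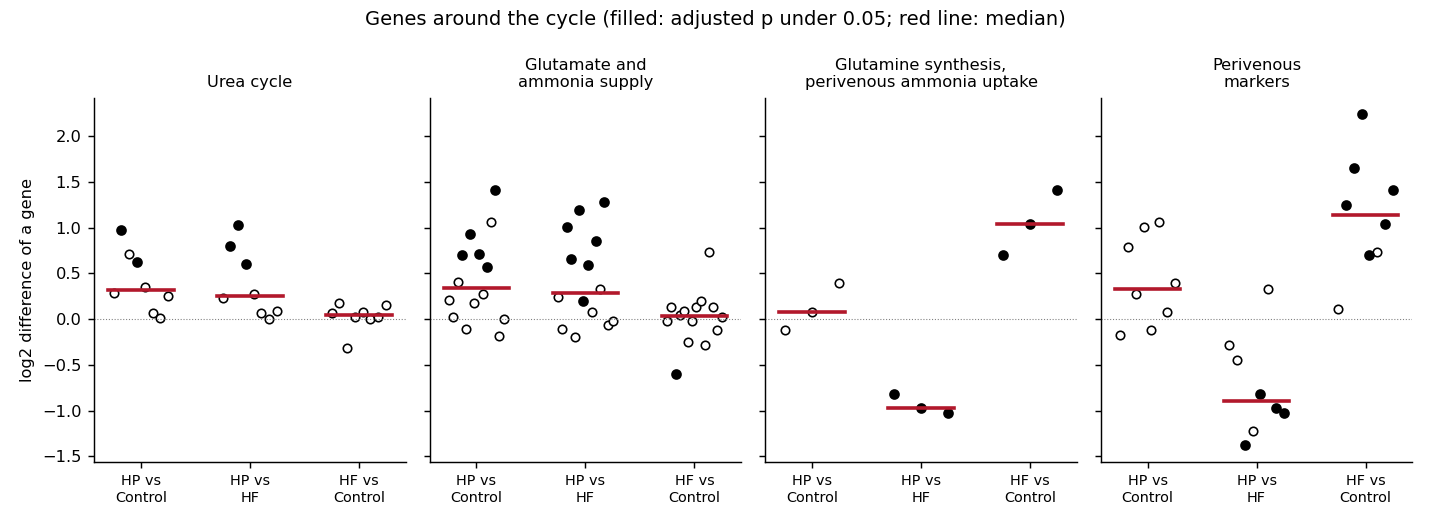
Log2 difference of each measured gene (vertical axis) in 3 comparisons for the 8 urea cycle members, 14 genes of glutamate and ammonia supply, 3 genes of glutamine synthesis and perivenous ammonia uptake, and 8 perivenous markers. Filled points have an adjusted p under 0.05 and red lines are medians; the median of the urea cycle members is 0.32 for HP vs Control, 0.25 for HP vs HF and 0.04 for HF vs Control.

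Genes that use arginine and ornithine formed a list of 10 measured genes. Of these, 0 were called in HP against Control by limma and 0 had an unadjusted p under 0.05. In HF against Control, Agmat, which splits agmatine, was higher (0.24 ± 0.06, SE, adjusted p = 0.0433) and Oaz1, an inhibitor of ornithine decarboxylase, was lower (-0.28 ± 0.08, adjusted p = 0.0494). Oaz1 was higher in HP than in HF (0.34, adjusted p = 0.0135). Of 3 measured genes of fumarate, malate and bicarbonate, Mdh1, cytosolic malate dehydrogenase, was lower in HF than in Control (-0.67 ± 0.12, adjusted p = 0.00192) and higher in HP than in HF (0.82, adjusted p = 0.000265), with no overlap of livers in either comparison. In HP against Control 0 of the 3 were called, with 1 at an unadjusted p under 0.05.

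Of 9 measured genes of amino acid and urea transport, 0 were called in HP against Control and 0 in HP against HF, with 2 at an unadjusted p under 0.05 in each. In HF against Control, Aqp9, a channel for glycerol and urea, was higher (0.41 ± 0.11, SE, adjusted p = 0.0428). Of 11 measured genes that regulate the cycle, 0 were called in HP against Control and 0 had an unadjusted p under 0.05. Sirt5, a mitochondrial deacylase that acts on carbamoyl phosphate synthetase 1 in mice, was lower in HF than in Control (-0.78 ± 0.16, adjusted p = 0.00579) and higher in HP than in HF (0.69 ± 0.16, adjusted p = 0.0121). HF livers did not overlap with the livers of either other diet for Sirt5.

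Markers of the lobule's zones were measured beside the members. Of 8 measured perivenous markers, 6 were higher in HF than in Control and 0 lower, against 1.72% and 1.73% of all probes. Of the 6, 3 are Glul, Rhbg and Slc1a2, described above. In HP against HF 4 of the 8 were lower and 0 higher, against 3.27% and 3.81% of all probes. The 4 include the same 3 genes, and 6 of the 8 had an unadjusted p under 0.05 in limma. In HP against Control 0 of the 8 were called, with 2 at an unadjusted p under 0.05 in limma. In the same comparison 6 of the 8 perivenous markers had a difference above 0, and the list's median was 0.33. The rat medians of the list were -0.40 to -0.09 in HP, 0.25 to 0.65 in HF and -1.23 to -0.06 in Control. Of 8 measured periportal markers, 3 rose in HP against Control, beside 0.308% of all probes. These were Gls2, Hal and Sds, which also stand in the supply list. Of the 8, 4 had a difference above 0 in HP against Control, and the list's median was -0.03. In HP against HF 4 of the 8 periportal markers were higher and 1 lower, against 3.81% and 3.27% of all probes. The higher ones were again Gls2, Hal and Sds, with Cyp2f4 (0.30), and the lower one was Cdh1 (-0.60). At an unadjusted p under 0.05 in limma there were 7 of the 8, beside 20.2% of all probes. In HF against Control 0 of the 8 were higher and 2 lower, Cyp2f4 (-0.42) and Hsd17b13 (-0.45), against 1.72% and 1.73% of all probes. Rat medians of the periportal list were -0.14 to 0.22 in HP, -0.32 to 0.04 in HF and -0.18 to 0.18 in Control. The part of such zonal differences in the values of the urea cycle genes was not tested. Of the stellate cell markers 1 of 9, Rgs5 (0.45), was higher in HP than in Control, beside 0.308% of all probes. Of the Kupffer cell, cholangiocyte and sinusoidal endothelial markers 0 of 9, 0 of 5 and 0 of 5 were called in that comparison. In HF against Control 2 of the 9 stellate cell markers were higher, Rgs5 (0.60) and Reln (0.52), beside 1.72% of all probes. In HP against HF 1 of the 9 was lower, Reln (-0.35), beside 3.27% of all probes.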

How the data were processed

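The 19 deposited array files hold the intensity of each spot (mean signal and local background), read with Agilent Feature Extraction 10.5.1.1 and with probes placed on rn4, per the file headers. The authors also deposited log2 values of 22764 features with a median of 8.21 in every column. Within an array these followed Cy5, and across arrays they followed the log ratio (r of 0.918 to 0.976 across features). How they were made is not given in the sources used here, so they served as an alternative.

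Background was corrected by normexp (offset 50), without 40 spots on 5 arrays whose local background exceeded the signal by more than 50. Loess was applied to each array's log2 ratios (Cy5 over Cy3), giving control spots a weight of 0. Marked outlier spots were dropped after this step. Probes with Cy5 well above background on at least 6 arrays were kept (25292). One linear model over the 3 diets was fitted with limma 3.58.1 in R 4.3.3 (16 residual and 3.32 prior degrees of freedom, two-sided), with Benjamini-Hochberg adjustment over all kept probes and calls at an adjusted p under 0.05. Other lists use the brightest kept probe of a gene. Figures and summaries used Python 3.11.15 with pandas 2.3.3, scipy 1.17.1 and matplotlib 3.10.9. The number of arrays limits the precision of every difference.

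The members, lists, tests and alternatives were chosen with earlier results of these data known. Named genes are all 8 members, at most 6 called genes per list and comparison by smallest p, and the 5 genes most like the members' median. Alternatives were normexp on every spot, the scanner's processed signals, Cy5 alone, the deposited values, scaling of average intensities between arrays and no filter on dim probes. Others were saturated spots dropped, 1 probe per gene, slide or replicate number as a block, within-slide values, and leaving out each rat. The alternatives are given for the members and for the number of probes called. The genes of the other lists were not followed through them.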

Additional observations from a re-analysis of the deposited data

Results flagged for a closer look

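Within-diet spreads of the 8 members were screened in 24 groups of livers, and 2 livers stood out by their gap to the nearest other liver of their diet. Chance marks about 1 in 20 groups. Cps1 in Control 6 was -0.73, and its gap took 0.625 of the whole range of the Control livers, above the limit of 0.568 for 7 values. The lymphocyte markers of this liver are given above. Slc25a15 in HF 4 was 0.29, and its gap took 0.699 of the range of the HF livers, above the limit of 0.625 for 6 values.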

How the results depend on the processing

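Asl kept its call against Control and against HF in every alternative that has a test, at 0.88 to 1.07 against Control and 0.74 to 0.89 against HF. Some alternatives could not move a member's difference. Scaling of average intensities between arrays left the log ratios tested as they were, and no member spot was saturated. The filter and 1 probe per gene change only which other probes are tested. Within single slides, which give values without a test, Asl was 0.70 to 1.52 against Control. The Cps1 call against Control was also lost with normexp on every spot (0.59, adjusted p = 0.0584) and with processed signals (0.64, adjusted p = 0.0527). Members called in HP against Control were 1 with normexp on every spot, 1 with processed signals, 1 with slide as a fixed block and 1 to 3 without 1 rat. In HP against HF they were 1 with slide as a fixed block and 3 without any 1 rat, and in HF against Control 0 throughout. All probes called in HP against Control were 113 (78 higher), and 61 (32 higher) with normexp on every spot, 63 (51 higher) with processed signals, 53 with Cy5 alone, 24 (21 higher) with slide as a fixed block and 90 (81 higher) in the deposited values. They were 26 to 460 without 1 rat and 85 with no filter on dim probes, moving by over 1.5 times without Control 1 (39), Control 2 (32), Control 3 (73), Control 5 (71), Control 7 (460), HP 1 (49), HP 2 (26), HP 4 (35) or HP 6 (26). In HF against Control 874 probes were called, 474 with slide as a fixed block and 649 to 999 without 1 rat. In HP against HF 1791 were called, 365 with slide as a fixed block and 1332 to 2518 without 1 rat. The cause was not tested.

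The replicate number was no pairing in the labels. Over 18 pairs of like-numbered rats of different diets the mean correlation of deviations was -0.01 (range -0.22 to 0.11), against 0.00 over 102 other pairs, and for 5 of 19 rats the closest rat bore the same number. Control 7 is the only rat with its number, so the replicate block gives the same HP minus Control differences of the members as leaving it out. The replicate block gave 209 called probes and 3 called members in HP against Control, 692 and 0 in HF against Control, and 1627 and 3 in HP against HF.

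Differences near 0 changed sign. In HF against Control, Cps1 became -0.0025 with normexp on every spot, -0.0047 with processed signals, -0.0289 with Cy5 alone and -0.0158 with the slide block. Otc became -0.0342 with processed signals, -0.0185 with Cy5 alone, -0.0192 with the slide block and -0.0036 with the replicate block. Arg1 became -0.0128 with Cy5 alone, -0.12 with the slide block and -0.0311 with the replicate block, and Slc25a13 became -0.0175 with the slide block. In HP against HF, Slc25a13 became 0.0201 with processed signals, 0.1231 with Cy5 alone, 0.0119 in the deposited values and 0.0261 with the slide block. Without 1 rat, HF minus Control was -0.0997 to 0.1177 for Cps1, -0.0377 to 0.0759 for Otc, -0.0993 to 0.1545 for Arg1, -0.0202 to 0.1314 for Nags and -0.003 to 0.058 for Slc25a13. HP minus HF was -0.0078 to 0.1058 for Otc and -0.041 to 0.0373 for Slc25a13, and HP minus Control was -0.0103 to 0.0587 for Slc25a13. All 8 probes were well above background on every array.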
